A study of Halocynthia roretzi with 24 samples.

Results

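The 9 gene models described here were higher in whole 110-cell embryos of the ascidian *Halocynthia roretzi* than in the animal and in the vegetal hemisphere of the same stage. They are 9 of the 10 genes called above both hemispheres, among 12703 genes tested and 16078 in the expression table. Their full identifiers are Harore.CG.MTP2014.S19.g04189, Harore.CG.MTP2014.S11.g02517, Harore.CG.MTP2014.S273.g15518, Harore.CG.MTP2014.S291.g14892, Harore.CG.MTP2014.S413.g14930, Harore.CG.MTP2014.S322.g05844, Harore.CG.MTP2014.S72.g09594, Harore.CG.MTP2014.S12.g11938 and Harore.CG.MTP2014.S25.g10033, and the shared beginning is left out from here on. The genes were chosen by their differences between whole embryos and each hemisphere at 110 cells, so those differences are given with their SE and without a test. The SE is estimated from the spread over all 6 groups of libraries, including 8-cell groups in which these genes were barely detected. It can therefore understate the spread of the whole and vegetal 110-cell libraries being compared.

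RNA was sequenced from 6 groups of wild-type embryos: whole embryos, animal hemispheres and vegetal hemispheres at 110 cells, and the same regions at 8 cells. Each group had 4 libraries, numbered 2, 3, 4 and 5 in every group. All animals carried the population label southwestern Japanese and came from stock kept over generations in an inland laboratory. The labels do not say how or how long before RNA extraction the hemispheres were separated, whether embryos were pooled, or what a number marks, so a p-value reflects only how much these libraries vary, which may be technical. Values are RPKM, reads per kilobase of gene model per M (mega) reads, and differences are on the log2(RPKM + 1) scale, which understates changes of low genes.

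In ascidian embryos the animal hemisphere forms mainly epidermis and part of the nervous system, and the vegetal hemisphere forms endoderm, muscle, notochord and mesenchyme. Most cells take their fate from maternal factors they inherit, and some are instructed by neighbours. A known case of signalling across the hemispheres is the induction of neural tissue in animal cells by vegetal cells through FGF, and notochord and mesenchyme are induced within the vegetal hemisphere. A gene that depends on contact between the hemispheres could be higher in intact embryos than in either isolated one, which is the question these genes bear on. RNA was bulk, so fewer cells of a type and less RNA per cell cannot be told apart. RPKM is a share of the RNA in genes, so differences in the RNA content of an embryo and its hemispheres are not measured. No gene list names regional markers with identifiers in these files, so the region labels were not checked against named markers.

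Of the 9 genes, 7 carry a note with a best match in the KH gene set, the gene models of the ascidian *Ciona*. These are KH.C1.260 for S11.g02517 (E-value 4e-08), KH.C10.150 for S273.g15518 (8e-168), KH.S544.3 for S413.g14930 (1e-39), KH.S837.1 for S322.g05844 (3e-87), KH.L106.16 for S72.g09594 (3e-76), KH.C7.116 for S12.g11938 (2e-68) and KH.C9.781 for S25.g10033 (6e-30). The notes of S19.g04189 and S291.g14892 name no KH match, as is the case for 28.5% of the tested genes. The files give no gene names or functions for these identifiers, so no role is stated for any of the 9.

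The 9 models lie on 9 different scaffolds of the authors' deposited annotation. The sources used here name no assembly for it. S19.g04189 spans bases 390603 to 392315 of scaffold S19 on the minus strand with 4 coding exons. S11.g02517 spans 355610 to 357297 of S11 on the plus strand with 2, and S273.g15518 spans 113285 to 126877 of S273 on the plus strand with 10. S291.g14892 spans 37223 to 38117 of S291 on the minus strand with 2, and S413.g14930 spans 10872 to 13932 of S413 on the plus strand with 4. S273.g15518 has the widest span of the 9. S322.g05844 spans 103841 to 106106 of S322 on the minus strand with 5 coding exons, and S72.g09594 spans 280284 to 282481 of S72 on the plus strand with 3. S12.g11938 spans 128912 to 132560 of S12 on the plus strand with 9 coding exons and 2 annotated mRNAs, and S25.g10033 spans 149913 to 151936 of S25 on the minus strand with 2. None of the 9 overlaps another model, and none has an annotated UTR, which is also the case for 51.7% of the tested genes. Their exon length was 768 to 2142 bp with a median of 1164 bp, against a median of 1551 bp over tested genes, and they had a median of 4 coding exons, against 6.

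All 9 were weakly expressed. Their mean in whole 110-cell embryos was 1.25 to 9.57 RPKM, at the 8.34 to 35.7 percentile of the tested genes, whose median there was 18.6 RPKM. From the steps between low RPKM values, the libraries held about 3.69 to 9.14 M reads in genes. The 110-cell libraries held 5.69 to 9.1 M in whole embryos, 5.77 to 7.54 M in animal and 3.69 to 5.53 M in vegetal hemispheres, so the vegetal libraries were the shallowest of that stage. The part of depth in the differences was not tested. A gene of the 9 was covered by about 7 to 146 reads in a whole 110-cell library, with a median of 29. Over all genes, 74.5% to 90.5% of low values near a whole read number were even, as if mates of a pair were counted separately. Fragments may therefore be fewer than reads. For these genes, 3 reads taken as a detection floor equal 0.253 to 1.06 RPKM in vegetal and 0.186 to 0.677 RPKM in animal 110-cell libraries. The lowest whole-embryo value of each of the 9 genes exceeded its highest floor of 3 reads in any 110-cell hemisphere library. If mates were counted separately, a floor of 3 fragments would lie higher. The lowest values of S11.g02517, S291.g14892 and S322.g05844, at 1.97, 1.82 and 1.07 RPKM, would not exceed it. Their highest vegetal floors were 1, 1.06 and 0.698 RPKM at 3 reads. The floor covers counting error only.

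The 9 genes were above 0 in 36 of 36 gene-by-library values of whole 110-cell embryos, 11 of 36 of animal and 25 of 36 of vegetal 110-cell hemispheres. The highest value was 15.2 RPKM in whole embryos, 0.984 in animal and 5.23 in vegetal hemispheres. Each of the 9 was above 0 in at least 1 vegetal library, so the description "only in whole embryos" needs qualification. Some of these vegetal values were below the floor of 3 reads. For S11.g02517 all of them were, at 0.450 and 0.548 RPKM against floors of 0.667 and 0.811 RPKM, so its RNA was not shown in vegetal hemispheres. Summed over the 9, expression was 41.2, 32.9, 53.7 and 42.4 RPKM in the whole-embryo libraries numbered 2 to 5, 1.8, 0.984, 0.554 and 1.82 RPKM in animal hemispheres and 3.97, 15.9, 11.3 and 12 RPKM in vegetal ones. Every whole-embryo sum was above every vegetal sum, and every vegetal sum above every animal sum.

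**Figure D1:**
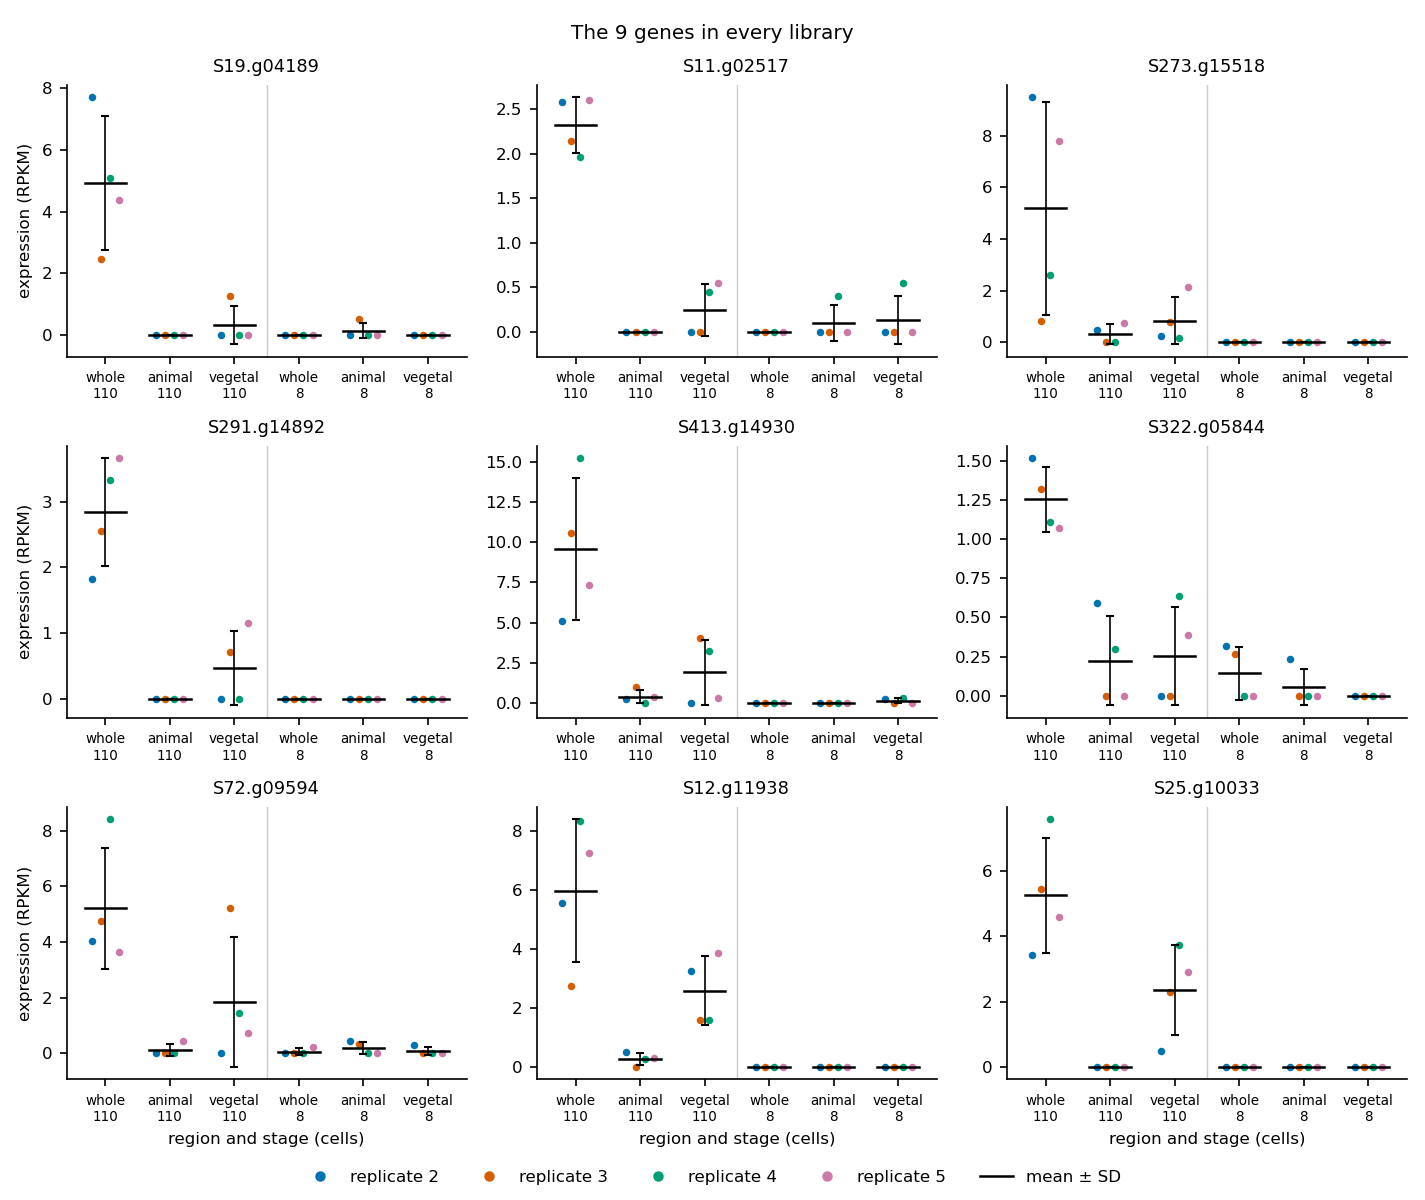
Expression in RPKM (y axis, a separate linear scale per gene) of the 9 genes in each library, with whole embryos, animal and vegetal hemispheres at 110 cells and then at 8 cells along the x axis. Points are libraries coloured by replicate number and bars are the mean ± SD of 4 libraries; whole 110-cell libraries stand highest, vegetal 110-cell libraries reach up to 5.23 RPKM, and the 8-cell libraries are at or near 0.

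S19.g04189 stood farthest above the hemispheres in fold terms. It had 7.72, 2.47, 5.08 and 4.39 RPKM in whole 110-cell libraries 2 to 5, 0 in all 4 animal libraries and 0, 1.24, 0 and 0 RPKM in vegetal libraries. Library 3 held both the lowest whole-embryo value and the lone vegetal value above 0, and the groups did not overlap. The mean was 4.91 ± 2.18 RPKM in whole embryos and 0.31 ± 0.621 RPKM in vegetal hemispheres (SD, n = 4 each), a ratio of 15.8. The log2 difference of whole embryos was 2.49 ± 0.27 from animal and 2.20 ± 0.27 from vegetal hemispheres (SE).

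S11.g02517 varied least between whole-embryo libraries, its highest being 1.32 times its lowest. Whole 110-cell libraries 2 to 5 had 2.58, 2.14, 1.97 and 2.60 RPKM, animal libraries 0 in all 4, and vegetal libraries 0, 0, 0.450 and 0.548 RPKM. No hemisphere library approached the whole-embryo values, and the vegetal values above 0 came from few reads, below the floor of 3. Whole embryos averaged 2.32 ± 0.316 RPKM and vegetal hemispheres 0.249 ± 0.291 RPKM (SD, n = 4 each), and the log2 differences were 1.73 ± 0.20 from animal and 1.44 ± 0.20 from vegetal hemispheres (SE).

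S291.g14892 had 1.82, 2.55, 3.33 and 3.66 RPKM in whole 110-cell libraries 2 to 5, 0 in all 4 animal libraries and 0, 0.713, 0 and 1.16 RPKM in vegetal libraries. The groups did not overlap, and the vegetal library closest to the whole-embryo range was number 5. The means were 2.84 ± 0.825 RPKM in whole embryos and 0.468 ± 0.571 RPKM in vegetal hemispheres (SD, n = 4 each), 6.07 times apart. Log2 differences of 1.91 ± 0.22 from animal and 1.44 ± 0.22 from vegetal hemispheres followed (SE).

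S322.g05844 was the lowest of the 9 in whole embryos. Its values were 1.52, 1.32, 1.11 and 1.07 RPKM in whole 110-cell libraries 2 to 5, 0.591, 0, 0.302 and 0 RPKM in animal and 0, 0, 0.634 and 0.387 RPKM in vegetal libraries. It was the gene with the most similar levels in the hemispheres, with a mean of 1.25 ± 0.207 RPKM in whole embryos, 0.223 ± 0.283 RPKM in animal hemispheres and 0.255 ± 0.311 RPKM in vegetal ones (SD, n = 4 each). Groups of whole embryos and hemispheres did not overlap, with log2 differences of 0.91 ± 0.21 from animal and 0.87 ± 0.21 from vegetal hemispheres (SE).

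S413.g14930 was the highest of the 9 in whole embryos. Whole 110-cell libraries 2 to 5 had 5.08, 10.6, 15.2 and 7.37 RPKM, animal libraries 0.230, 0.984, 0 and 0.358 RPKM and vegetal libraries 0, 4.07, 3.21 and 0.301 RPKM. The vegetal libraries split into 3 and 4, above 3 RPKM, and 2 and 5, near 0, and numbers 3 and 4 were also the highest in whole embryos. Means were 9.57 ± 4.41 RPKM in whole embryos, 0.393 ± 0.421 RPKM in animal hemispheres and 1.9 ± 2.05 RPKM in vegetal ones (SD, n = 4 each), and the log2 differences were 2.87 ± 0.39 from animal and 2.11 ± 0.39 from vegetal hemispheres (SE).

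S273.g15518 was the most variable between whole-embryo libraries, its highest 11.4 times its lowest. It had 9.51, 0.831, 2.60 and 7.81 RPKM in whole 110-cell libraries 2 to 5, 0.488, 0, 0 and 0.758 RPKM in animal and 0.240, 0.784, 0.174 and 2.13 RPKM in vegetal libraries. Whole-embryo library 3 was below vegetal library 5 and only 1.06 times vegetal library 3, so these groups overlapped. With means of 5.19 ± 4.13 RPKM in whole embryos and 0.832 ± 0.906 RPKM in vegetal hemispheres (SD, n = 4 each), the log2 differences were 1.97 ± 0.39 from animal and 1.56 ± 0.39 from vegetal hemispheres (SE).

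In the other 3 genes the vegetal mean was a larger share of the whole-embryo mean, at 35.5% for S72.g09594, 43.1% for S12.g11938 and 44.7% for S25.g10033. S72.g09594 had 4.03, 4.76, 8.41 and 3.64 RPKM in whole 110-cell libraries 2 to 5, 0, 0, 0 and 0.421 RPKM in animal and 0, 5.23, 1.45 and 0.710 RPKM in vegetal libraries. Vegetal library 3 was higher than 3 of the 4 whole-embryo libraries, including the whole-embryo library of its own number, while vegetal library 2 was at 0. The means were 5.21 ± 2.18 RPKM in whole embryos, 0.105 ± 0.211 RPKM in animal hemispheres and 1.85 ± 2.33 RPKM in vegetal ones (SD, n = 4 each), with log2 differences of 2.45 ± 0.36 from animal and 1.40 ± 0.36 from vegetal hemispheres (SE).

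S12.g11938 had 5.56, 2.75, 8.33 and 7.25 RPKM in whole 110-cell libraries 2 to 5, 0.492, 0, 0.252 and 0.287 RPKM in animal and 3.27, 1.58, 1.59 and 3.87 RPKM in vegetal libraries. All 4 vegetal libraries were above all 4 animal libraries, and whole-embryo library 3 lay within the vegetal range. It averaged 5.97 ± 2.43 RPKM in whole embryos, 0.258 ± 0.202 RPKM in animal hemispheres and 2.58 ± 1.17 RPKM in vegetal ones (SD, n = 4 each), and differed by 2.41 ± 0.25 from animal and 0.94 ± 0.25 from vegetal hemispheres (log2, SE).

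S25.g10033 had 3.42, 5.47, 7.60 and 4.59 RPKM in whole 110-cell libraries 2 to 5, 0 in all 4 animal libraries and 0.467, 2.30, 3.74 and 2.91 RPKM in vegetal libraries. Whole-embryo library 2 was just below vegetal library 4, and every vegetal library was above every animal library. Vegetal library 2 held about 2 reads, below its floor of 0.683 RPKM, so its difference from the animal libraries is not resolved. Whole embryos averaged 5.27 ± 1.77 RPKM and vegetal hemispheres 2.35 ± 1.39 RPKM (SD, n = 4 each), and the log2 differences were 2.61 ± 0.27 from animal and 0.98 ± 0.27 from vegetal hemispheres (SE). For S25.g10033 the SE was also 0.27 at 8 cells, where every library was at 0. The SE is therefore not the spread of the 110-cell libraries alone. Without vegetal library 2, the lowest, the difference from vegetal hemispheres was 0.63. The smaller difference from a hemisphere was 0.63 to 1.19 with libraries left out.

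Across the 9, whole-embryo libraries were all above the animal libraries for 9 genes, against 4.72% of tested genes, and all above the vegetal libraries for 5, against 2.43%. They were above all libraries of both hemispheres for 5 members and for 0.181% of tested genes. The call above both hemispheres was made for 0.0787% of the tested genes; since the same differences chose the members, nothing is read from these counts. By the same rule 0.0157% were below both. Within a replicate number, the whole-embryo library was above both hemisphere libraries in 35 of 36 pairs of gene and number. The exception was S72.g09594 in number 3, at 0.91 times the vegetal library. The same values chose the members and the share over all tested genes was not counted, so nothing is read from this count either. The whole-embryo library with the highest value was number 4 for 4 genes, number 2 for 3 and number 5 for 2, so no single library was highest for all 9. Leaving out number 4 left 5 genes above both hemispheres, 4 of them members, leaving out number 5 left 5 with 3 members, and a pseudocount of 0.1 gave 4 with 3 members. With the replicate number as a block there were 16, which included all 9.

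**Figure D2:**
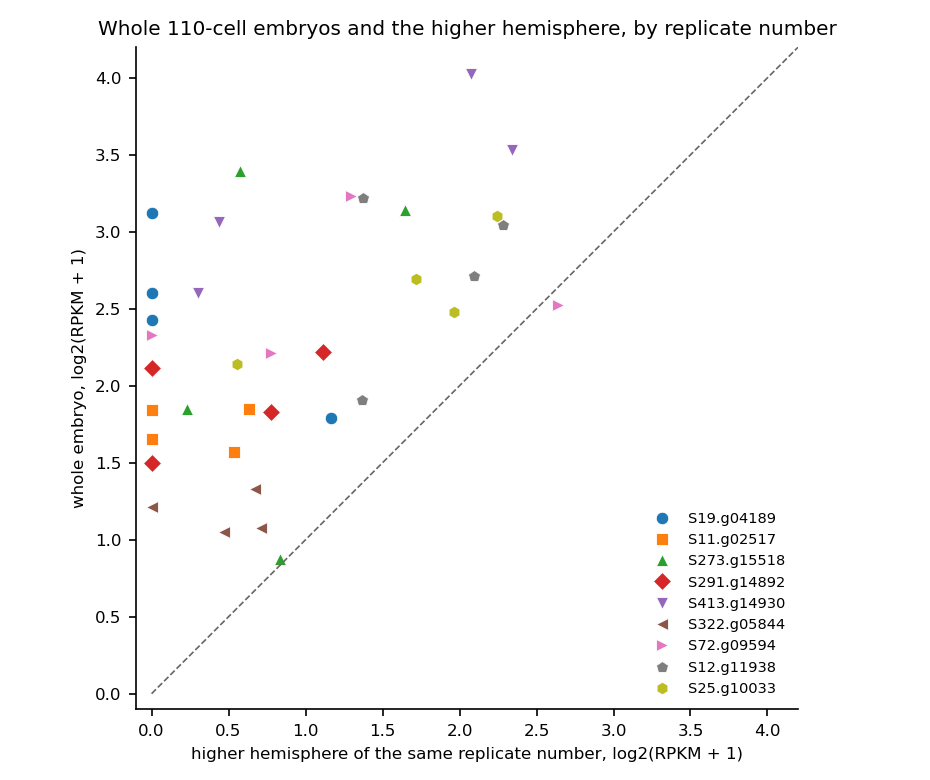
Each point is 1 of the 9 genes in 1 replicate number at 110 cells, with the whole-embryo library on the y axis and the higher of the animal and vegetal libraries on the x axis, both as log2(RPKM + 1). The dashed line marks equal values. Above it lie 35 of 36 points, and S72.g09594 in number 3 lies below. The same values chose the genes, so the count is only a description.

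At 8 cells the genes were at or near 0. Values above 0 numbered 3 of 36 in whole embryos, 5 of 36 in animal and 4 of 36 in vegetal hemispheres, with maxima of 0.316, 0.494 and 0.545 RPKM and at most 4 reads in a library. S273.g15518, S291.g14892, S12.g11938 and S25.g10033 were at 0 in all 12 libraries of that stage. S19.g04189 had 0.494 RPKM in animal library 3. S11.g02517 had 0.40 RPKM in animal and 0.545 RPKM in vegetal library 4, and S413.g14930 had 0.260 and 0.299 RPKM in vegetal libraries 2 and 4. These 3 were at 0 in the remaining 8-cell libraries. S322.g05844 had 0.316 and 0.265 RPKM in whole-embryo libraries 2 and 3 and 0.233 RPKM in animal library 2. S72.g09594 had 0.231 RPKM in whole-embryo library 5, 0.427 and 0.347 RPKM in animal libraries 2 and 3 and 0.306 RPKM in vegetal library 2. A value of 0 at this depth limits a gene's level to the floor of 3 reads, at most 0.856 RPKM for the 9 in these libraries. It does not show absence, and a floor in fragments would lie higher if mates were counted separately.

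The log2 difference between 110 and 8 cells in whole embryos was 0.98 ± 0.21 for S322.g05844 at the low end and 3.31 ± 0.39 for S413.g14930 at the high end (SE). In animal hemispheres it was −0.14 ± 0.27 to 0.43 ± 0.39, the ends being S19.g04189 and S413.g14930. In vegetal hemispheres it was 0.13 ± 0.20 for S11.g02517, 1.02 ± 0.39 for S413.g14930, 1.08 ± 0.36 for S72.g09594, 1.62 ± 0.27 for S25.g10033 and 1.78 ± 0.25 for S12.g11938. The 110-cell libraries entered the choice of the genes, so no stage test is given. Whether the genes were also undetected between these stages was not measured.

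Whole embryos and hemispheres could be tested at 8 cells, whose differences the choice did not use. The 8-cell libraries did enter the filter and the shared estimate of spread behind the call. In limma's test with Benjamini-Hochberg adjustment, whole embryos and animal hemispheres differed for 6 of 12703 genes (0.0472%), none of them among the 9, whose log2 differences were −0.16 to 0.11. Whole embryos and vegetal hemispheres differed for 0 genes (0%), or 198 at an unadjusted p under 0.05, again with none of the 9, whose differences were −0.18 to 0.18. The adjusted p was 1 for each of the 9 in both comparisons, with SE of 0.20 to 0.39. No gene was above both hemispheres at 8 cells. For the 9 these tests compare values at or below a few reads, and 8 of them passed the filter on low values only with the help of whole 110-cell libraries, so an equal level is not shown.

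**Figure D3:**
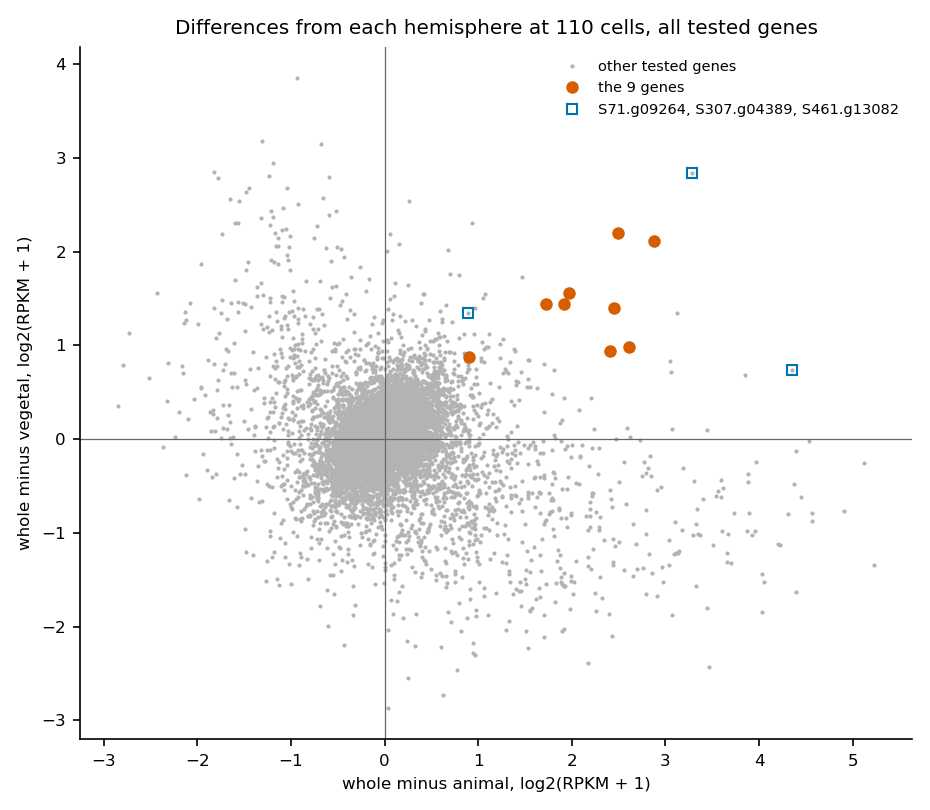
Log2(RPKM + 1) difference of whole embryos from animal hemispheres (x axis) and from vegetal hemispheres (y axis) at 110 cells for all 12703 tested genes, with the 9 genes as large orange points and S71.g09264, S307.g04389 and S461.g13082 as open squares. The 9 lie in the upper right quadrant, at 0.91 to 2.87 on the x axis and 0.87 to 2.20 on the y axis.

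The hemispheres were then compared with each other at 110 cells. Vegetal hemispheres had the higher mean for 9 of 9 genes, with a median animal minus vegetal log2 difference of −0.47, against 0.06 over all tested genes. The same hemisphere libraries entered the choice of the genes through their differences from whole embryos, so these differences are given with their SE and without a test. The difference was −1.62 ± 0.27 for S25.g10033, −1.46 ± 0.25 for S12.g11938 and −1.05 ± 0.36 for S72.g09594 (SE). Every vegetal library was above every animal library for S12.g11938 and S25.g10033, a pattern that 5.86% of tested genes had. For S25.g10033 this included vegetal library 2 at 0.467 RPKM, below its floor of 0.683 RPKM, against animal values of 0. The hemispheres of the other 7 genes overlapped or shared values of 0. S413.g14930 differed by −0.77 ± 0.39, S291.g14892 by −0.47 ± 0.22, S273.g15518 by −0.41 ± 0.39, S19.g04189 by −0.29 ± 0.27, S11.g02517 by −0.29 ± 0.20 and S322.g05844 by −0.03 ± 0.21. The sign for S322.g05844 depended on the setting. Without vegetal library 2, which was at 0, the difference for S72.g09594 was −1.44. Over all tested genes, limma called 5.51% lower and 3.64% higher in animal hemispheres at this stage, 9.16% in either direction.

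At 8 cells, whose differences the choice did not use, the animal minus vegetal difference of the 9 was −0.18 to 0.14 with an adjusted p of 1 throughout (limma). Among all tested genes, 15 (0.118%) were called. The 9 had at most 4 reads in an 8-cell library, and 8 of them needed whole 110-cell libraries to pass the filter. An equal level in the hemispheres is therefore not shown. S12.g11938 and S25.g10033 were at 0 in both hemispheres at 8 cells, so for them the change of the difference between the stages, −1.46 ± 0.36 and −1.62 ± 0.38 (SE), repeats the difference at 110 cells.

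**Figure D4:**
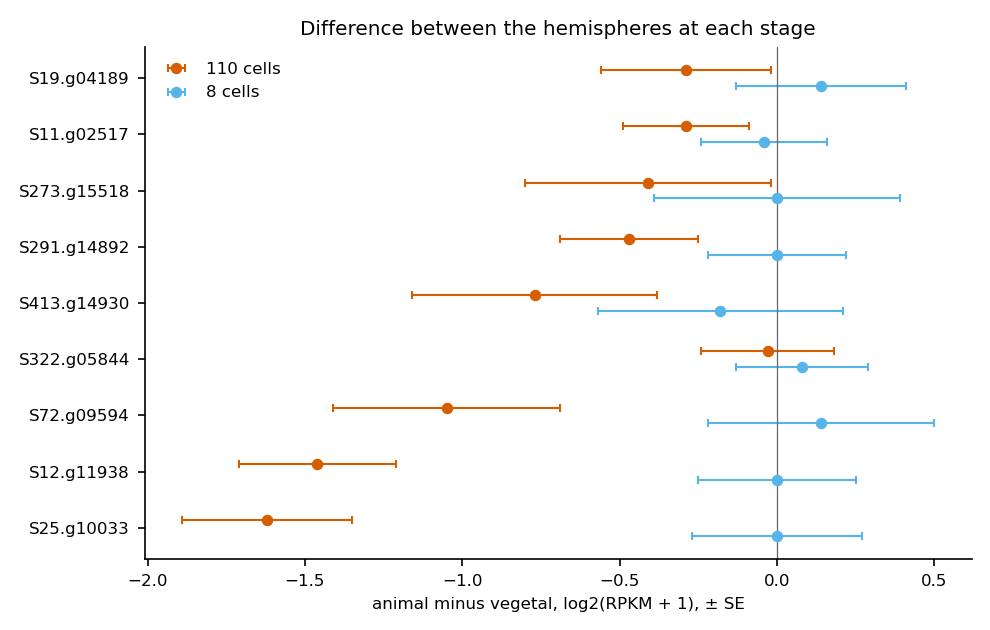
Animal minus vegetal difference on the log2(RPKM + 1) scale (x axis) for the 9 genes (rows) at 110 cells (orange) and 8 cells (blue), with bars of ± SE. All 9 orange points are below 0, down to −1.62 for S25.g10033. The blue points lie between −0.18 and 0.14 and come from values at or near 0, so they do not show an equal level.

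Other models share a best match with members. There are 14 for the 7 genes that have a match, 10 of them tested. Of these 10, 0 were called above both hemispheres, against 0.0787% of tested genes, so nothing is read from that count. In the same 10, 4 were lower in animal than in vegetal hemispheres at 110 cells and 0 were higher (limma), against 5.51% and 3.64% of tested genes. S466.g02299, which shares KH.C7.116 with S12.g11938, averaged 4.3 ± 3.09 RPKM in whole embryos, 0.824 ± 1.32 RPKM in animal hemispheres and 14 ± 11.4 RPKM in vegetal ones (SD, n = 4 each), an animal minus vegetal log2 difference of −2.85 ± 0.51 (SE, adjusted p = 0.000276, limma). Its difference between whole embryos and vegetal hemispheres did not pass, at −1.29 ± 0.51 (SE, adjusted p = 0.276, limma). It was listed at 0 in every 8-cell library, as was S12.g11938. S205.g08413, which shares KH.L106.16 with S72.g09594, averaged 2 ± 1.53 RPKM in whole embryos, 0.0948 ± 0.19 RPKM in animal hemispheres and 1.67 ± 0.524 RPKM in vegetal ones (SD, n = 4 each), and its animal minus vegetal difference was −1.28 ± 0.24 (adjusted p = 0.000525, limma). S11.g10731, which shares KH.C1.260 and scaffold S11 with S11.g02517, averaged 4.1 ± 1.37, 1.46 ± 1.09 and 5.13 ± 1.6 RPKM (SD, n = 4 each) in whole, animal and vegetal samples (−1.36 ± 0.27, adjusted p = 0.000785, limma). S297.g10026 shares KH.S544.3 with S413.g14930 and averaged 0.794 ± 0.595, 0 and 1.28 ± 0.857 RPKM in the same order (−1.08 ± 0.28, adjusted p = 0.0111, limma). S272.g05881, with the same match, was lower in whole embryos than in vegetal hemispheres, at 0.658 ± 0.513 and 3.3 ± 2.34 RPKM (SD, n = 4 each; log2 difference −1.29 ± 0.33 SE, adjusted p = 0.033, limma). Models with a shared match could share reads with a member, and the sources used here do not say how the authors counted such reads.

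The nearest models on each side of the 9 genes, 18 in all, were examined after their values were seen. They lie 5 to 28451 bp away, and 10 were tested. Of these, 0 were called above both hemispheres, against 0.0787% of tested genes, so nothing is read from that count either. S12.g04658 lies 423 bp upstream of S12.g11938 on the same strand, at bases 127253 to 128488 of scaffold S12, and its note names KH.S256.6. It had 1.88, 3.01, 5.16 and 5.94 RPKM in whole 110-cell libraries 2 to 5, 0 in all 4 animal libraries and 5.4, 3.79, 2.25 and 2.74 RPKM in vegetal libraries. Its vegetal values lay within the range of its whole-embryo values, with a log2 difference of 0.10 ± 0.24 (SE, adjusted p = 0.954, limma), and both stood above animal hemispheres. Its animal minus vegetal difference was −2.13 ± 0.24 (SE, adjusted p = 5.72e-07, limma). S12.g10153 lies 1002 bp downstream of S12.g11938, at bases 133563 to 133772, and was too low to be tested, with 3.01, 0.938, 1.38 and 0 RPKM in whole embryos, 0 in all 4 animal and 4.32, 0, 0 and 0 RPKM in vegetal libraries. All 3 models of scaffold S12 were at 0 in every 8-cell library. The libraries did not keep strand, so reads of S25.g10033 and of S25.g06603, 5 bp away on the other strand, cannot be told apart by strand where transcripts extend past the models, and S25.g06603 averaged only 0.0588 RPKM in whole 110-cell embryos.

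**Figure D5:**
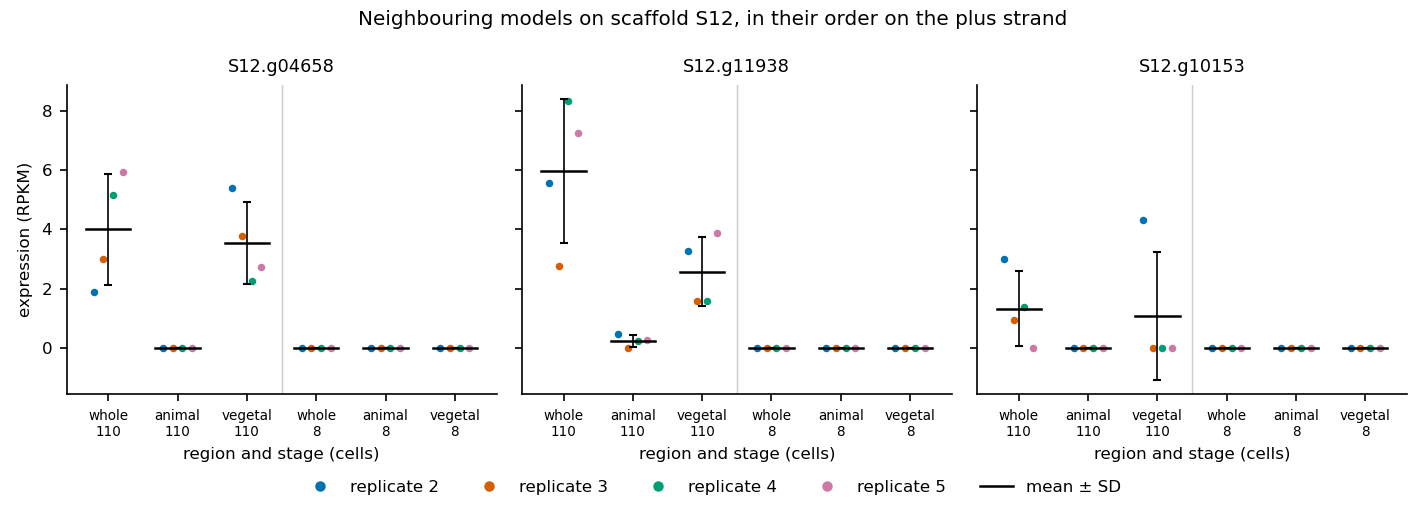
Expression in RPKM (y axis) of S12.g04658, S12.g11938 and S12.g10153, the neighbouring models on scaffold S12, in each region at 110 cells and then at 8 cells (x axis), with points for libraries and bars for the mean ± SD of 4. S12.g04658 is at similar levels in whole embryos and vegetal hemispheres, at 4 and 3.54 RPKM on average, where S12.g11938 has 5.97 and 2.58 RPKM.

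The 10th gene above both hemispheres is S71.g09264, with KH.C2.957 as its best match, at bases 100137 to 102395 of scaffold S71. It averaged 9.61 ± 3.14 RPKM in whole embryos, 0.0676 ± 0.135 RPKM in animal hemispheres and 0.474 ± 0.35 RPKM in vegetal ones at 110 cells (SD, n = 4 each). Its smaller log2 difference, 2.84 from vegetal hemispheres, exceeded that of each of the 9, of which S19.g04189 came closest at 2.20. Over the 24 libraries its log2 profile was also the most like the mean standardised profile of the 9, with a Pearson r of 0.949. S480.g09061, with KH.C5.369 as its match, came next at 0.906, with means of 2.61 ± 1.53 RPKM in whole embryos, 0 in animal hemispheres and 0.999 ± 0.714 RPKM in vegetal ones (SD, n = 4 each). The 24 points share their regions, stages and processing, so the coefficients are descriptions.

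The call depends on the larger of a gene's adjusted p-values against the hemispheres. In that order S12.g11938 and S25.g10033 were the last inside the threshold. The next in it, named after their values were seen, were S307.g04389 (KH.L56.4), at 1.67 ± 1.02 RPKM in whole embryos, 0.486 ± 0.73 RPKM in animal and 0 in vegetal hemispheres, and S461.g13082 (KH.S589.4), at 23 ± 4.54, 0.179 ± 0.248 and 13.4 ± 2.7 RPKM in the same order (SD, n = 4 each).

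The 9 were finally set beside other genes that were low at 8 cells and present in whole 110-cell embryos, a class defined after the values were seen as a mean under 0.5 RPKM in each 8-cell group and of at least 1 RPKM in whole 110-cell embryos. It held 682 genes, including all 9. Of the other 673, 18.4% had a whole-embryo mean above both hemisphere means, and their median log2 ratio of the whole-embryo mean to the higher hemisphere mean, with 1 RPKM added to each, was −0.67. For the 9 this ratio was 0.84 to 2.17 with a median of 1.39, which the choice of the genes fixes. The vegetal mean was above the animal mean for 65.5% of the other 673 and for 9 of 9 members.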

How the data were processed

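The authors deposited RPKM per gene model for the 24 libraries and an annotation whose scores and coordinates gave positions, exons and best matches. Per the labels' protocols, RNA was taken up in Trizol and made into TruSeq libraries without strand. HISAT2 is the tool named, per the submitters' processing notes. Counter and build: not given in the sources used here. Multiplied by exon length, RPKM added up to 1.012 to 1.032 M in a library. Depth was inferred from steps between low values, of which 56.3% to 72.4% lay within 0.1 reads of a whole number (20% by chance); no count model was used.

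All 24 libraries entered 1 limma 3.58.1 fit (R 4.3.3) on log2(RPKM + 1) with 6 groups and a trend, for 12703 genes reaching 1 RPKM in 4 or more libraries, two-sided, Benjamini-Hochberg adjusted over all of them with a threshold of 0.05. The fit was tested on simulated data, with changes planted only in genes of higher average expression than the 9. That test does not cover genes as low as these. Of the 9 members all passed the filter, 2 (S11.g02517 and S322.g05844) through whole 110-cell libraries alone. The members and lists were chosen with earlier results of these data known. Named besides them are the 2 genes most like their mean profile, genes with the same best match, overlapping models and the remaining gene called above both hemispheres. The planned hemisphere test at 110 cells is not given for members, whose choice used those libraries. Same-numbered libraries deviated together in all 24 same-stage pairs (correlation 0.372 to 0.595), so the labels' numbers were taken to pair them. The main fit had no term for the number, so its SE, adjusted p and counts ignore this pairing. A fit with the number as a block is given only as an alternative. Alternatives were other pseudocounts, filters, scalings, priors and samples, the block and left-out libraries.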

Additional observations from a re-analysis of the deposited data

Results flagged for a closer look

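Of the 54 groups of 4 values that the 9 genes have, 32 were not all equal and were checked for a library standing apart by Dixon's ratio of a gap to the range, and 8 did. In each of the 8 the other 3 libraries were at 0, which puts the ratio at its maximum whenever a single library holds any read, so the usual chance rate of about 1 in 20 does not apply to them. At 110 cells these were S19.g04189 in vegetal library 3 (1.24 RPKM) and S72.g09594 in animal library 5 (0.421 RPKM). At 8 cells they were S19.g04189 in animal library 3 (0.494 RPKM), S11.g02517 in animal library 4 (0.4 RPKM) and vegetal library 4 (0.545 RPKM), S322.g05844 in animal library 2 (0.233 RPKM), and S72.g09594 in whole-embryo library 5 (0.231 RPKM) and vegetal library 2 (0.306 RPKM).

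The animal minus vegetal difference was larger at 110 than at 8 cells for S12.g11938, with a change of −1.46 on the log2 scale, and for S25.g10033, with a change of −1.62, a comparison added after the values were seen. Both genes were at 0 in all 12 libraries of 8 cells, so the change repeats the difference at 110 cells, whose libraries entered the choice of the genes, and it is no separate evidence.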

How the results depend on the processing

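The number of genes above both hemispheres at 110 cells, 10 with all 9 members, was 4 (3 members) with a pseudocount of 0.1, 26 (9) with no filter, 2 (1, S413.g14930) with a filter at 5 RPKM, 4 (3) with that stage fitted alone and 5 to 12 (3 to 8) with libraries left out, 5 being reached without replicate 4 or 5. The filter at 5 RPKM tested fewer genes and removed every member but S413.g14930 before the fit, so the other members could not be called there. The animal minus vegetal count at 110 cells, 1163, was 670 with the filter at 5 RPKM, and 884 to 1156 with libraries left out. At 8 cells, whole embryos against animal hemispheres gave 6 genes, 3 with median-ratio rescaling and 0 to 4 with libraries left out. Animal against vegetal hemispheres gave 15 there, and 7 to 17 with libraries left out (7 without number 3, 9 without number 5).

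In the fit with a block for the replicate number, 16 genes were above both hemispheres at 110 cells, and the counts were 12 for whole embryos against animal hemispheres at 8 cells, 39 for animal against vegetal hemispheres at 8 cells and 1824 at 110 cells (911 higher in animal, 913 in vegetal, against 463 and 700). No member was called at 8 cells with or without the block.

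The smaller of a member's differences from the hemispheres, 0.87 to 2.20 on the log2 scale, kept its sign in all alternatives that included the member. It moved most with the pseudocount: it was 1.18 to 4.60 at 0.1 and 0.25 to 1.08 at 5. It was 0.49 for S322.g05844 with quantile normalization, 1.90 for S72.g09594 (1.40) without replicate 3 and 0.63 for S25.g10033 (0.98) without vegetal 110-cell library 2. The animal minus vegetal difference of S322.g05844 (−0.03) turned to 0.10 with quantile normalization and reached 0.11 with libraries left out, turning positive without replicate 4 (0.07), replicate 5 (0.11), animal library 3 (0.06) or 5 (0.06), or vegetal library 4 (0.11) or 5 (0.03); its range there was −0.27 to 0.11. Its change between stages (−0.11) was −0.27 to 0.03 with libraries left out, and positive without replicate 5 (0.01) or vegetal 110-cell library 4 (0.03). The cause of these shifts was not tested.

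Depth limits the values below about 1 RPKM, where a hemisphere library holds few reads.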
